A study of Mus musculus with 12 samples.

Results

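The 4 NFAT (nuclear factor of activated T cells) genes followed here are Nfatc1, Nfatc2, Nfatc3 and Nfat5. They were taken by symbol, with every transcript listed under each symbol; the family was picked with earlier results of these data known. They are 4 of 45321 genes and 28 of 108214 matched transcripts. The libraries came from total CD4+ T cells purified untouched from the spleens of C57BL/6 mice, whose number and age the labels do not give. Cells were pretreated for 1 h and then stimulated or left alone for 2 h, giving 4 groups of 3 libraries. The CsA_PI cells received 1 µM cyclosporin A (CsA) and then 10 nM PMA with 1 µM ionomycin, ethanol_PI cells received ethanol and then the same stimulus, CsA_US cells received 1 µM CsA and stayed unstimulated, and ethanol_US cells received ethanol and stayed unstimulated. The 2 by 2 design asks what CsA does in stimulated and in unstimulated cells, what stimulation does with and without CsA, and whether the response to stimulation differs with CsA.

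NFATc1, NFATc2 and NFATc3 are transcription factors held phosphorylated in the cytoplasm of resting T cells. Ionomycin raises cytoplasmic calcium, which activates the phosphatase calcineurin; calcineurin strips phosphates from these proteins, they enter the nucleus, and there they bind DNA with partners such as AP-1, which the phorbol ester PMA induces through protein kinase C. Cyclosporin A bound to cyclophilin blocks calcineurin. NFAT5 shares the Rel-type DNA-binding domain but lacks the calcineurin docking region and is best known for the response to high salt. In lymphocytes Nfatc1 is transcribed from an upstream and a downstream promoter and can end at a proximal or a distal polyadenylation site.

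Promoter sequence is shown for Nfatc2, Nfatc3 and Nfat5, whose transcript levels moved in opposite directions with stimulation below. Nfatc1 was left out of the promoter search. RefSeq (GRCm38.p6) gave 5 promoter windows of 300 bases for the 3 genes searched. The 250 bases that precede an annotated start are printed for 1 window of each, with the NFAT core letters GGAAA, or TTTCC where they lie on the other strand, in capitals.
Nfatc2 chr2:168590366-168590615 (minus strand): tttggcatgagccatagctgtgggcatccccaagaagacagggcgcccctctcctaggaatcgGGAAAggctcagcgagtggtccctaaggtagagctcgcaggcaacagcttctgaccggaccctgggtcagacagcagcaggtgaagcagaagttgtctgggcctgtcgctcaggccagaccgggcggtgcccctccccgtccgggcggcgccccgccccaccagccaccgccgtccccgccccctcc
Nfatc3 chr8:106059340-106059589 (plus strand): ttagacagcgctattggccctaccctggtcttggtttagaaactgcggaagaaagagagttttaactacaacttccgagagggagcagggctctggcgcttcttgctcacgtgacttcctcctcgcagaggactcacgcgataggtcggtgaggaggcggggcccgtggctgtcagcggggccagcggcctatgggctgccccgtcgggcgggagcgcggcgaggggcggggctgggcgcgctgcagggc
Nfat5 chr8:107293220-107293469 (plus strand): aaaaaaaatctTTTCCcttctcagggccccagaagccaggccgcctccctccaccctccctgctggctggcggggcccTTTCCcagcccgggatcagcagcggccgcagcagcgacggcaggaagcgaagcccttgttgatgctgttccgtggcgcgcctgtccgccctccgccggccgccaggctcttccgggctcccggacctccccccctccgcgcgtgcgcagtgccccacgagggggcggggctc
The Nfatc2 window, before the start at 168590365, held 1 core match, the Nfatc3 window held 0 and the Nfat5 window held 2. A second Nfatc2 window held 3 and a second Nfatc3 window held 1. The AP-1 letters TGANTCA, searched on both strands, had 0 matches in each of the 5 windows. Among 32851 RefSeq promoter windows of this length, 20151 (61.3%) held the core letters, with a median of 1 match, and 2565 (7.81%) held TGANTCA, so the core letters are common in any such window.

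Library totals ran from 10523816 to 18468044 estimated counts. The T cell markers were present in every library: Cd4 ranged from 197.9 to 448.3 CPM (counts relative to the library total, with TMM scaling) over the 12 libraries. Cd8a ranged from 0 to 6.35 CPM and Cd8b1 from 4.99 to 21.8 CPM. With stimulation in ethanol, 3 of the 7 T cell markers were higher and 3 lower at an adjusted p under 0.05 (edgeR), beside 39.8% of all genes. B cell markers moved with the replicate number: the summed level of the 7 genes found of 7 listed was 988, 394, 955 and 964 CPM in replicate 2 of CsA_PI, ethanol_PI, CsA_US and ethanol_US, and between 72.6 and 153 CPM in the other 8 libraries. The 8 myeloid and dendritic markers, all found, summed to 236 to 315 CPM in replicate 2 of the 4 groups and to 63.9 to 100 CPM elsewhere. The 7 markers of CD8 and NK cells summed to 95.5 to 156 CPM and the 7 of erythroid cells and platelets to 21.1 to 205 CPM. The 4 regulatory T cell markers, which include the induced genes Il2ra and Ctla4, summed to 308 to 916 CPM in CsA_PI, 1366 to 1555 CPM in ethanol_PI, 223 to 272 CPM in CsA_US and 270.1 to 299 CPM in ethanol_US. The part of these other cells in the results below was not tested, and in such bulk samples fewer cells of a type cannot be told apart from less RNA per cell.

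The library labelled CsA_PI 2 stood apart from its group. Over the 66 pairs of libraries, its counts were closest to those of ethanol_US 2, with a mean chi-square of 4.06 per gene, while the next closest pair, ethanol_PI 1 and ethanol_PI 3, had 13.6. Against CsA_PI 1 and CsA_PI 3 its mean chi-square was 169 and 155. Nr4a1, an immediate early gene of T cell stimulation, had 8982 and 9695 CPM in CsA_PI 1 and 3 and 651 CPM in the library labelled CsA_PI 2, against 852, 640.1 and 558 CPM in ethanol_US. The 4 NFAT genes themselves had levels in it close to those of the other CsA_PI libraries, as given below. Results of comparisons with CsA_PI are therefore given with and without it.

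Relative to unstimulated ethanol cells, stimulated ethanol cells held 5.04-fold more Nfatc1 and 2.00-fold more Nfat5, and 0.434 and 0.335 times as much Nfatc2 and Nfatc3. The levels of all 4 genes in stimulated cells that had received CsA lay near those of unstimulated cells. Nfatc1, the NFAT gene known to be induced through its own pathway, had 193, 222 and 230.3 CPM in CsA_PI, against 1061.6, 1003.2 and 1110.7 CPM in ethanol_PI. Unstimulated libraries had 186, 239 and 192 CPM in CsA_US and 216, 221 and 193 CPM in ethanol_US. The 3 ethanol_PI libraries were higher than the other 9, which overlapped one another.

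Nfatc2, the NFAT protein abundant in resting T cells, had 33.9, 32.3 and 37.1 CPM in CsA_PI, against 7.86, 14.8 and 13.1 CPM in ethanol_PI. It had 28.9, 29.5 and 38.6 CPM in CsA_US, and 26.2, 31.4 and 25.0 CPM in ethanol_US. The 3 ethanol_PI libraries were below the other 9. Nfatc3, which thymocytes and T cells also express, had 131, 118 and 121 CPM in CsA_PI, against 34.2, 44.8 and 32.2 CPM in ethanol_PI. Its unstimulated levels were 87.3, 158 and 120.3 CPM in CsA_US, and 102, 118 and 112 CPM in ethanol_US. Again the 3 ethanol_PI libraries were lowest, and CsA_US spanned the widest range of the 4 groups.

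Nfat5, the calcineurin-independent relative, had 43.7, 31.9 and 36.7 CPM in CsA_PI, against 52.3, 83.8 and 79.9 CPM in ethanol_PI. It had 24.1, 44.9 and 36.6 CPM in CsA_US, and 42.5, 34.7 and 31.03 CPM in ethanol_US. The lowest ethanol_PI library, replicate 1, was higher than every library of the other groups, by a smaller margin than for the other 3 genes. In TPM this separation was lost: ethanol_PI 1 had 6.27 TPM, below CsA_PI 2 and 3 at 6.45 and 6.73 TPM and ethanol_US 1 and 2 at 8.62 and 6.51 TPM. Nfatc4, the remaining calcineurin-dependent gene of the family, had at most 5.04 estimated counts in a library and was not tested.

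**Figure D1:**
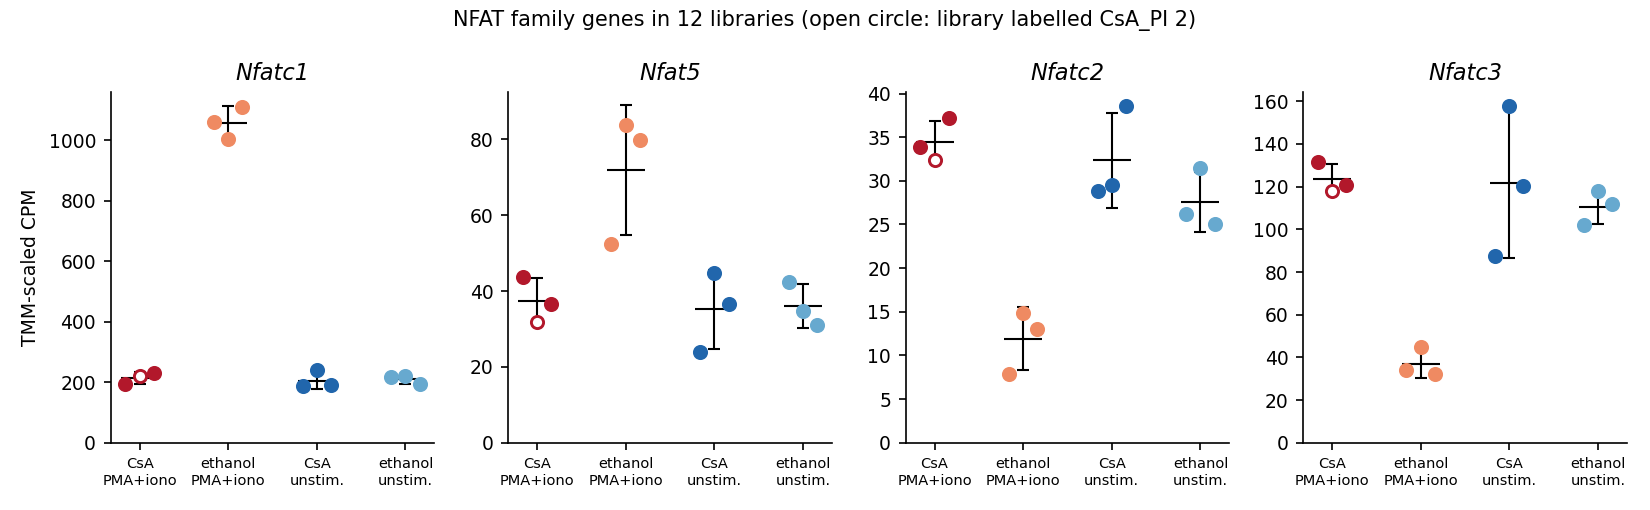
TMM-scaled CPM (vertical axis, starting at 0) of Nfatc1, Nfat5, Nfatc2 and Nfatc3 in CsA_PI, ethanol_PI, CsA_US and ethanol_US. Each point is a library, the open circle is the library labelled CsA_PI 2, and lines give the mean and SD of 3 libraries; the ethanol_PI points stand above the rest for Nfatc1 and Nfat5 and below for Nfatc2 and Nfatc3.

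With CsA, stimulated cells had less Nfatc1 and Nfat5 and more Nfatc2 and Nfatc3 than stimulated ethanol cells. Nfatc1 averaged 215 ± 19.7 CPM in CsA_PI and 1058.5 ± 53.8 CPM in ethanol_PI (SD, n = 3 each), a log2 fold change of -2.30 ± 0.17 (SE; adjusted p = 5.02e-06, edgeR quasi-likelihood test with Benjamini-Hochberg adjustment). Nfat5 averaged 37.4 ± 5.92 CPM in CsA_PI and 72.0 ± 17.2 CPM in ethanol_PI, with a log2 fold change of -0.94 ± 0.26 (adjusted p = 0.0182). Nfatc2 averaged 34.5 ± 2.45 CPM in CsA_PI and 11.9 ± 3.63 CPM in ethanol_PI, a 2.88-fold difference (log2 1.53 ± 0.24, adjusted p = 0.000641). For Nfatc3 the means were 123.5 ± 6.95 CPM in CsA_PI and 37.1 ± 6.80 CPM in ethanol_PI, a 3.33-fold difference (log2 1.73 ± 0.21, adjusted p = 0.000123).

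All 4 genes passed the threshold (adjusted p under 0.05) in this comparison, as did 3318 of 14398 genes tested (23%). Without the library labelled CsA_PI 2 the log2 fold changes were -2.29 for Nfatc1, -0.80 for Nfat5, 1.61 for Nfatc2 and 1.804 for Nfatc3, with adjusted p of 1.98e-06, 0.0454, 0.000489 and 5.65e-05, beside 22.5% of 15057 genes. The Nfat5 call rested on few libraries: its adjusted p was 0.0749 without ethanol_PI 2, 0.0689 without ethanol_PI 3 and 0.0501 without CsA_PI 3. It also depended on the scaling: with library totals alone the median log2 fold change of all genes was 0.40, where it is 0.06 with TMM, and Nfat5 was at -0.63 (adjusted p = 0.0891). The labels do not say whether the libraries of a group came from separate animals or cultures, so these p-values measure only the spread between libraries, which may be technical.

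Stimulation without CsA moved the same 4 genes. Nfatc1 was higher in ethanol_PI, at 1058.5 ± 53.8 CPM, than in ethanol_US, at 210.2 ± 15.2 CPM, with a log2 fold change of 2.33 ± 0.17 (adjusted p = 3.09e-06). Nfat5 averaged 72.0 ± 17.2 CPM in ethanol_PI and 36.1 ± 5.84 CPM in ethanol_US (log2 1.00 ± 0.26, adjusted p = 0.00786). Nfatc2 fell to 11.9 ± 3.63 CPM in ethanol_PI, against 27.6 ± 3.41 CPM in ethanol_US (log2 -1.21 ± 0.24, adjusted p = 0.00161). Nfatc3 fell to 37.1 ± 6.80 CPM in ethanol_PI, against 110.6 ± 7.87 CPM in ethanol_US (log2 -1.58 ± 0.21, adjusted p = 0.000121). Here 39.8% of the genes tested passed the threshold, 20.1% higher and 19.7% lower, so a call in this comparison is common. With library totals alone the median of all genes was -0.63, where it is -0.02 with TMM, and Nfat5 was at 0.39 (adjusted p = 0.228). These 2 comparisons share the ethanol_PI libraries, and their mirrored values are not independent of each other.

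With CsA present, no change with stimulation was detectable for these genes. Between CsA_PI and CsA_US the log2 fold change was 0.06 ± 0.16 for Nfatc1, 0.09 ± 0.25 for Nfat5, 0.09 ± 0.23 for Nfatc2 and 0.02 ± 0.21 for Nfatc3. None of the 4 passed, by edgeR or by DESeq2, and 0 had an unadjusted p under 0.05, where 5.28% of all genes passed and 25.7% had an unadjusted p under 0.05. Removing the library labelled CsA_PI 2 raised that share to 28.7% (4320 genes), and the 4 log2 fold changes were then 0.02, 0.18, 0.11 and 0.03, with 0 of the 4 called. Nfatc1 averaged 215 ± 19.7 CPM in CsA_PI and 206 ± 28.9 CPM in CsA_US, and Nfatc3 averaged 123.5 ± 6.95 CPM in CsA_PI and 122 ± 35.3 CPM in CsA_US. The standard errors were 0.16 to 0.25 and a call takes a change of several of them, so changes well above 0.25 could also go undetected. With library totals alone the 4 values were -0.16 to -0.23, beside a median of all genes of -0.21.

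In unstimulated cells CsA made no detectable difference. Between CsA_US and ethanol_US the log2 fold changes were -0.03 ± 0.16 for Nfatc1, -0.04 ± 0.25 for Nfat5, 0.23 ± 0.23 for Nfatc2 and 0.14 ± 0.21 for Nfatc3, each with an adjusted p of 1. By edgeR 0 of the 4 were called and 0 had an unadjusted p under 0.05, and DESeq2 called 0 of the 4. Over all genes 1 was called (0.00695%), and 3.23% had an unadjusted p under 0.05.

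The test of the difference itself, the CsA effect in stimulated cells minus that in unstimulated cells, passed for 3 of the 4 genes. It was -2.27 ± 0.23 for Nfatc1 (adjusted p = 0.000228), 1.60 ± 0.29 for Nfatc3 (adjusted p = 0.00534) and 1.297 ± 0.33 for Nfatc2 (adjusted p = 0.0269), all on the log2 scale, where 9.72% of genes passed. For Nfat5 it was -0.91 ± 0.36 (adjusted p = 0.14). Without the library labelled CsA_PI 2 these differences were -2.26, 1.67, 1.37 and -0.76, with the same 3 genes called and 12.4% of all genes. The Nfatc2 call was lost, at adjusted p between 0.051 and 0.0672, without any of CsA_PI 3, ethanol_PI 1, ethanol_PI 3, CsA_US 1, CsA_US 2, ethanol_US 1 or ethanol_US 2.

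**Figure D2:**
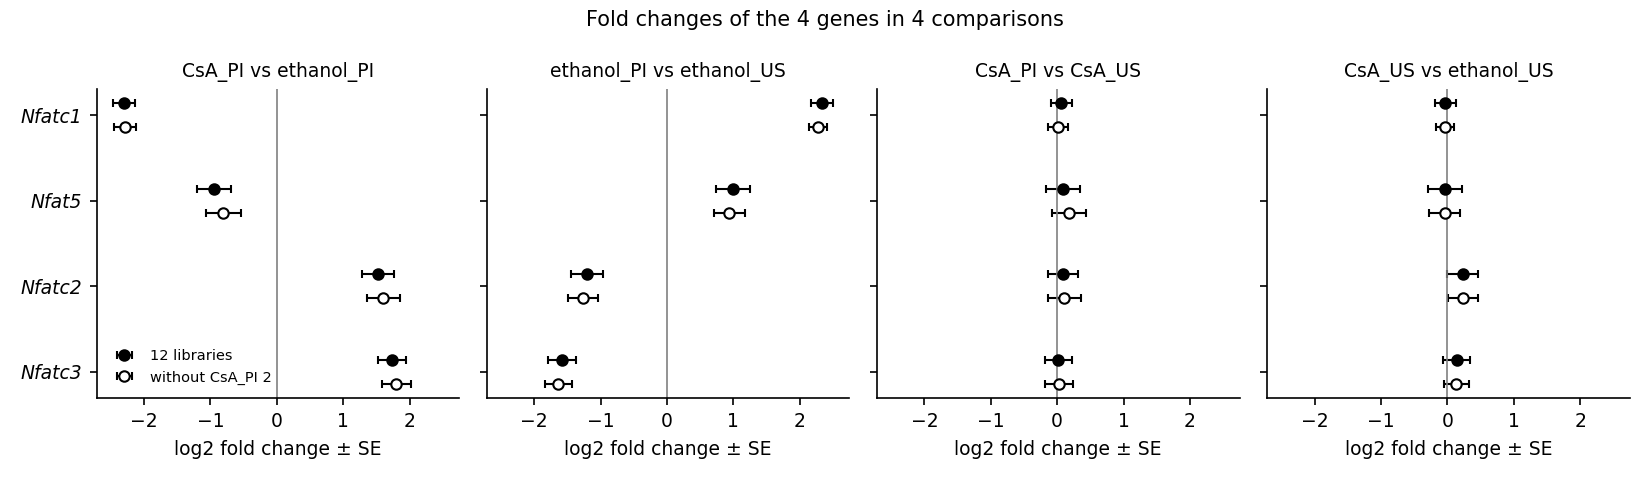
Log2 fold change (horizontal axis, ± SE) of each gene in 4 comparisons, with all 12 libraries (filled) and without the library labelled CsA_PI 2 (open). Filled values for CsA_PI against ethanol_PI run from -2.30 to 1.73 and open ones from -2.29 to 1.804, and those for CsA_PI against CsA_US lie between 0.02 and 0.18.

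Levels of different genes were compared in TPM, which divides by transcript length. Nfatc1 was the highest in every group, at 61.3 ± 14.96 TPM in CsA_PI, 243.6 ± 17.5 TPM in ethanol_PI, 65.7 ± 5.32 TPM in CsA_US and 71.6 ± 4.86 TPM in ethanol_US. Nfatc3 had 26.3 ± 3.68, 6.46 ± 1.45, 29.3 ± 7.08 and 28.6 ± 1.32 TPM in the same order of groups. Nfatc2 had 8.86 ± 1.66, 3.002 ± 0.79, 9.53 ± 1.99 and 9.22 ± 0.89 TPM, and Nfat5 had 6.04 ± 0.96, 9.15 ± 2.59, 5.70 ± 0.33 and 6.76 ± 1.74 TPM. The order was Nfatc1, Nfatc3, Nfatc2, Nfat5 in CsA_PI, CsA_US and ethanol_US, although the ranges of Nfatc2 and Nfat5 overlapped in ethanol_US. In ethanol_PI it was Nfatc1, Nfat5, Nfatc3, Nfatc2, with overlapping ranges of Nfat5 and Nfatc3. Among 14386 tested genes with a TPM, Nfatc1 ranked above 83.3% in CsA_PI, 95.2% in ethanol_PI, 83.5% in CsA_US and 83.7% in ethanol_US.

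The make-up of the family differed accordingly. Nfatc1 held 56.3%, 61.8% and 60.2% of the summed TPM of the 4 genes in CsA_PI, against 94.2%, 91.7% and 92.9% in ethanol_PI. It held 62.9%, 59.0% and 57.4% in CsA_US and 62.9%, 61.1% and 60.7% in ethanol_US. No library scaling enters these shares, and the 3 ethanol_PI libraries lay above all 9 others. Nfatc3 held 25.9% of the sum in CsA_PI, 2.47% in ethanol_PI, 26.3% in CsA_US and 24.7% in ethanol_US as group means. Nfatc2 held 8.68%, 1.14%, 8.74% and 7.93%, and Nfat5 5.94%, 3.45%, 5.20% and 5.79%. The ratio of Nfatc1 to Nfatc3 TPM ran from 1.94 to 2.52 in CsA_PI, 29.7 to 45.8 in ethanol_PI, 2.00 to 2.83 in CsA_US and 2.28 to 2.79 in ethanol_US. Nfat5 exceeded Nfatc3 in each ethanol_PI library, with a ratio of 1.13 to 1.97, and was below it elsewhere, at 0.21 to 0.271 in CsA_PI, 0.169 to 0.257 in CsA_US and 0.178 to 0.318 in ethanol_US. The summed TPM itself was 102 ± 20.6 in CsA_PI, 262.2 ± 20.5 in ethanol_PI, 110.2 ± 11.7 in CsA_US and 116 ± 6.25 in ethanol_US.

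**Figure D3:**
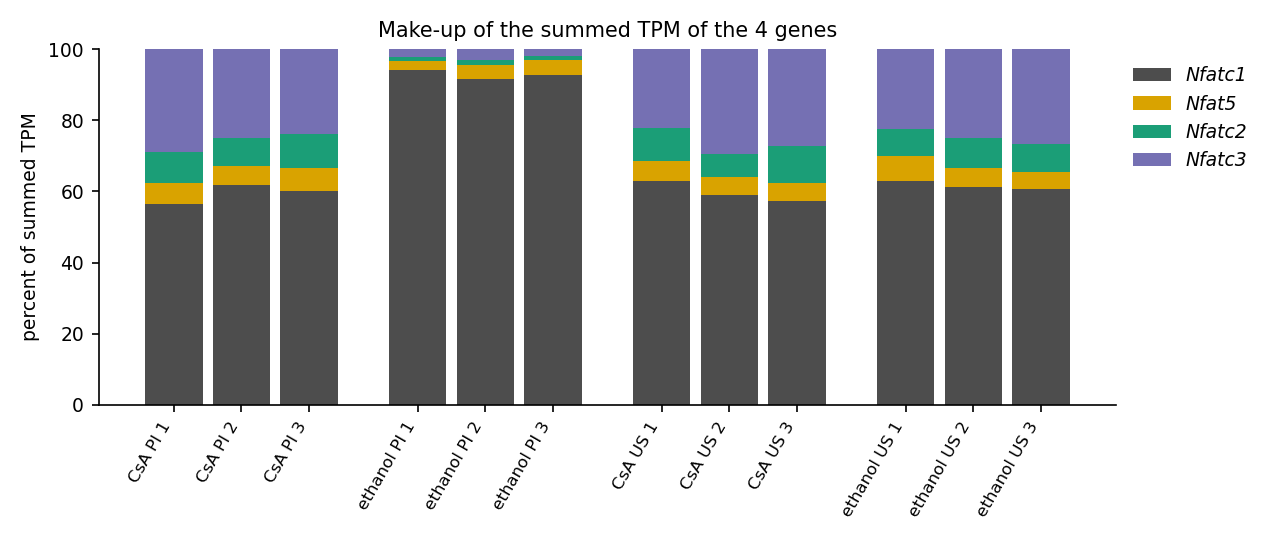
Share of each gene in the summed TPM of Nfatc1, Nfat5, Nfatc2 and Nfatc3 (vertical axis, percent), 1 bar per library. The Nfatc1 share is 91.7% to 94.2% in the ethanol_PI bars and 56.3% to 62.9% in the other 9.

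Of the 28 listed transcripts, 23 had a count in some library and 14 passed the filter on low counts: 4 of 4 for Nfatc1, 5 of 9 for Nfatc2, the only listed transcript of Nfatc3 and 4 of 14 for Nfat5. The tested ones held 98.7% of the Nfatc2 and 94.0% of the Nfat5 counts. The annotation used here holds 7 transcripts of Nfatc1 and 7 of Nfatc3, of which 4 and 1 are listed. Levels, folds and TPM shares of these genes rest on the listed transcripts only. How far reads can tell transcripts apart was described by stretches of 31 bases found in no other listed transcript of the gene. Such stretches made up 53.6% of Nfatc1-201, 7.03% of Nfatc1-202 and 0% of Nfatc1-203 and Nfatc1-204. They made up 25.7% of Nfat5-212 and 0% of Nfat5-214. Where that share is near 0, the split of reads between transcripts is an estimate whose error the deposited tables do not give. Sums over transcripts with a common start or end depend less on that split. The split of Nfatc1-203 from Nfatc1-202 and Nfatc1-204 still enters the Nfatc1 start sums.

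The Nfatc1 gene (ENSMUSG00000033016) lies on the minus strand of chromosome 18, 80606205 to 80713071 on mm10. Transcripts Nfatc1-202 (start 80713058) and Nfatc1-204 (start 80712766) begin at the upstream promoter and end at the distal site, 80606205. Nfatc1-203 joins the downstream start, 80708173, to the same distal end. Nfatc1-201, with 8 exons where the others have 10, runs from the downstream start to the proximal end at 80647435. A transcript from the upstream start to the proximal end was not analysed here. The deposited lengths of Nfatc1-202, Nfatc1-204 and Nfatc3-201 differ from those in the annotation used here, so the start and end positions given for these 3 transcripts may not be those the authors quantified.

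Nfatc1-201 and Nfatc1-202, the listed Nfatc1 transcripts with 31-base stretches of their own, moved with the gene. For Nfatc1-202 these make up only 7.03%, so its split from Nfatc1-204 is less certain. Nfatc1-201 had 88.4, 82.4 and 109 CPM in CsA_PI, against 519, 464 and 514 CPM in ethanol_PI. In unstimulated cells it had 61.7, 86.6 and 79.6 CPM in CsA_US and 79.2, 88.6 and 84.1 CPM in ethanol_US. Nfatc1-202 had 78.3, 88.2 and 93.5 CPM in CsA_PI, against 432, 426 and 475 CPM in ethanol_PI. Both stood apart in ethanol_PI, with no overlap with any other library. For Nfatc1-202 the unstimulated values were 67.4, 107 and 84.8 CPM in CsA_US and 76.8, 71.0 and 72.5 CPM in ethanol_US. The CsA effect in stimulated cells was -2.31 (log2, adjusted p = 7.86e-05) for Nfatc1-201 and -2.24 (adjusted p = 0.000156) for Nfatc1-202, against a background of 6.8% of 35470 transcripts called. These were -2.27 for Nfatc1-201 and -2.30 for Nfatc1-202 without the library labelled CsA_PI 2, both still called. Stimulation in ethanol gave 2.39 for Nfatc1-201 (adjusted p = 5.46e-05) and 2.42 for Nfatc1-202 (adjusted p = 6.84e-05), where 17.3% were called.

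The other Nfatc1 transcripts were less certain. Nfatc1-204 had 25.8, 34.04 and 27.2 CPM in CsA_PI and 110, 112 and 120 CPM in ethanol_PI, and its log2 fold change of -1.85 ± 0.51 missed the threshold (adjusted p = 0.0563; -2.04 and 0.0858 without the library labelled CsA_PI 2). Its unstimulated values scattered from 6.03 to 34.5 CPM in CsA_US and from 35.3 to 61.5 CPM in ethanol_US. Nfatc1-203 was estimated at 0 in all 3 ethanol_PI libraries and in CsA_PI 1 and 3, at 17.1 CPM in the library labelled CsA_PI 2, at 50.8, 10.7 and 12.4 CPM in CsA_US and at 20.1, 0 and 0.768 CPM in ethanol_US. Neither of these transcripts has a 31-base stretch of its own.

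Grouped by start site, both Nfatc1 start groups moved by a like amount. The downstream start group has 2535 stretches of 31 bases found only in it. Of these, 2397 are the ones that also mark the proximal 3′ end. The start and end groups are therefore not separate measurements, and a change at a promoter is not told apart from one at a 3′ end. The downstream start had a log2 CsA effect of -2.26 in stimulated cells and the upstream start -2.19 (13.9% of 21929 start-site groups called); without the library labelled CsA_PI 2 they were -2.29 and -2.27. For stimulation in ethanol the values were 2.34 at the downstream start and 2.11 at the upstream start, where 27.9% were called. The upstream start held 54.1%, 55.1% and 52.4% of the gene's counts in CsA_PI, against 51.0%, 53.7% and 53.6% in ethanol_PI. It held 39.5%, 59.2% and 52.1% in CsA_US, and 54.0%, 59.9% and 56.0% in ethanol_US. These ranges overlap. Between same-numbered libraries the share was lower in ethanol_PI than in ethanol_US in 3 of 3 pairs and lower in CsA_US than in ethanol_US in 3 of 3, while the usage test with the replicate block gave -0.10 for the upstream start in ethanol_PI against ethanol_US (log2, adjusted p = 1). A change in start-site usage, the log2 change of a start relative to the rest of its gene, was not called for Nfatc1 in any of the 5 contrasts, and between CsA_PI and ethanol_PI it was 0.03 for the upstream start (adjusted p = 1).

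The proximal 3′ end held 45.9%, 37.2% and 47.6% of Nfatc1 counts in CsA_PI, against 49.0%, 46.3% and 46.4% in ethanol_PI. It held 33.2%, 36.3% and 41.5% in CsA_US, and 36.7%, 40.1% and 43.6% in ethanol_US. All 3 ethanol_PI libraries were above the unstimulated ones, and the library labelled CsA_PI 2 was the lowest of its group and within the ethanol_US range. The usage test gave 0.24 for the proximal end in ethanol_PI against ethanol_US (log2, unadjusted p = 0.449) and -0.12 in CsA_PI against ethanol_PI, both with an adjusted p of 1. Between the proximal and distal ends the levels moved alike: the CsA effect in stimulated cells was -2.37 at the proximal and -2.14 at the distal end (13.4% of 25431 end groups called). It was -2.29 at the proximal and -2.27 at the distal end without the library labelled CsA_PI 2, where the usage value of the proximal end was -0.01. Stimulation in ethanol gave 2.46 at the proximal and 2.03 at the distal end (28.5% called).

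**Figure D4:**
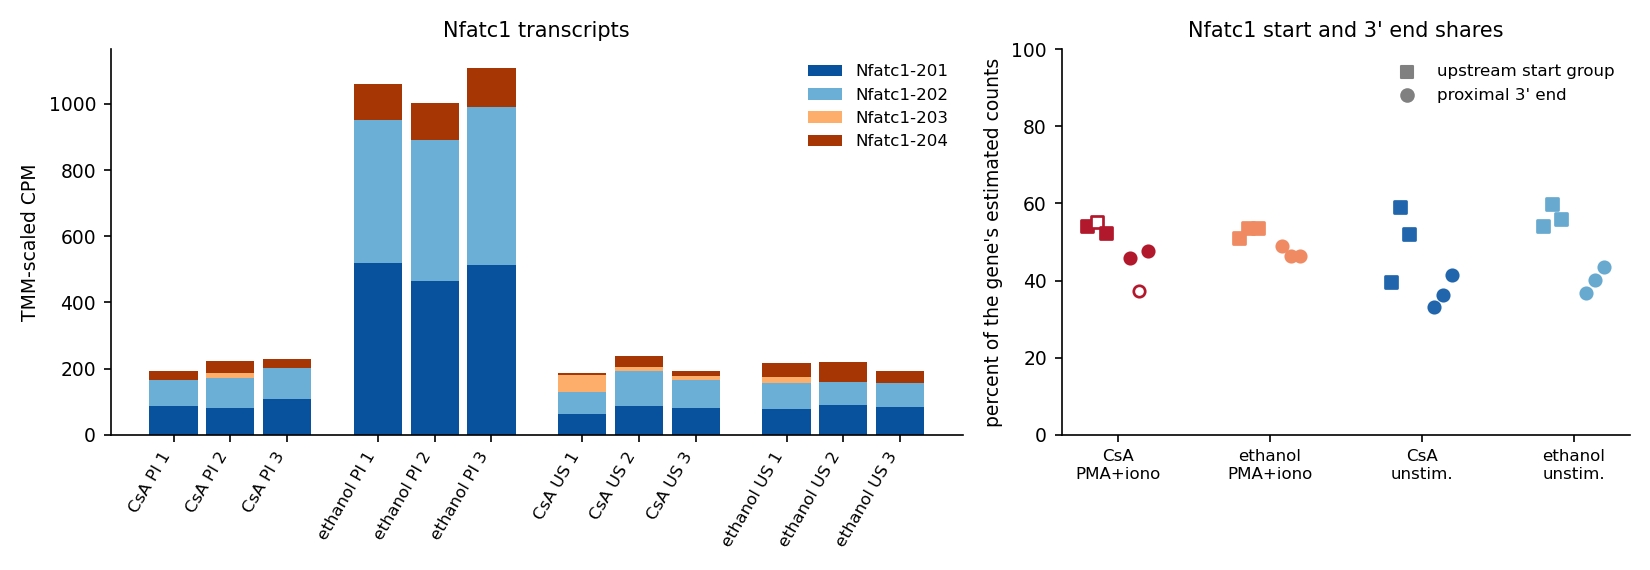
Left, TMM-scaled CPM of the 4 listed Nfatc1 transcripts stacked in each library; right, percent of Nfatc1 estimated counts at the upstream start (squares) and the proximal 3′ end (circles), with the library labelled CsA_PI 2 open. The stack is far higher in the 3 ethanol_PI libraries than in the other 9, and in ethanol_PI the proximal end holds 46.3% to 49.0%.

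Nfatc2 (ENSMUSG00000027544) spans chr2:168476410-168601657 on the minus strand, and its counts came mostly from the start near 168590365, the start whose upstream sequence is printed above. That start group had a CsA effect of 1.61 in stimulated cells (log2, adjusted p = 0.033), and its change with stimulation in ethanol, -0.90, missed the threshold (adjusted p = 0.151). The CsA call was lost without any 1 of the 6 stimulated libraries, with adjusted p from 0.0542 to 0.129 (0.0551 without the library labelled CsA_PI 2). The full-length 3′ end near 168476413 had 1.77 and -1.48 in the same comparisons, both called, and 1.801 for CsA in stimulated cells without that library. By transcript, Nfatc2-202 had 10.0, 12.6 and 21.6 CPM in CsA_PI, against 4.82, 3.38 and 5.86 CPM in ethanol_PI, and did not pass (log2 1.75 ± 0.55, adjusted p = 0.0907; 0.138 without the library labelled CsA_PI 2). Nfatc2-208, from a start at 168552276, had at most 8.85 estimated counts in any stimulated library, while CsA_US had 168, 0 and 213 and ethanol_US had 78.2, 0 and 299 counts. The libraries at 0 are both replicate 2, and no comparison called this transcript. Stretches of 31 bases of its own made up 0.439% of Nfatc2-202, 30.9% of Nfatc2-206 and 44.4% of Nfatc2-207. Nfatc2-206 and Nfatc2-207, both retained-intron transcripts, were not called. For CsA in stimulated cells they had 0.76 ± 0.39 and 1.76 ± 1.37 (log2), or 0.86 and 1.44 without the library labelled CsA_PI 2. For stimulation in ethanol they had -0.59 ± 0.39 and -2.07 ± 1.38.

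Nfatc3 (ENSMUSG00000031902) lies at chr8:106058840-106130537 on the plus strand. Of 7 transcripts in the annotation used here 1 was listed, Nfatc3-201 with 10 exons. It had 131, 118 and 121 CPM in CsA_PI, against 34.2, 44.8 and 32.1 CPM in ethanol_PI, a log2 difference of 1.84 (adjusted p = 0.00112), or 1.83 without the library labelled CsA_PI 2. Stimulation in ethanol gave -1.75 (adjusted p = 0.000749). With 1 transcript these values repeat those of the gene, on a table of transcripts.

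Nfat5 (ENSMUSG00000003847) lies at chr8:107293470-107379517 on the plus strand. Its main transcript, Nfat5-214 with 15 exons, had 29.3, 20.7 and 23.9 CPM in CsA_PI, against 35.2, 63.6 and 42.5 CPM in ethanol_PI. It had 15.6, 36.1 and 17.2 CPM in CsA_US, and 16.7, 15.7 and 16.4 CPM in ethanol_US. The ethanol_PI and ethanol_US libraries did not overlap, with a log2 fold change of 1.36 ± 0.34 (adjusted p = 0.0214; 0.059 to 0.0793 without ethanol_PI 2 or any ethanol_US library), while CsA_US 2 reached into the ethanol_PI range. The CsA effect in stimulated cells, -0.83 ± 0.34, missed the threshold (adjusted p = 0.194; 0.351 without the library labelled CsA_PI 2). At the start 107293470, whose upstream sequence is printed above, the CsA effect was -1.02 (adjusted p = 0.0348; 0.068 without the library labelled CsA_PI 2, and 0.0616 to 0.123 without CsA_PI 1, CsA_PI 3, ethanol_PI 2 or ethanol_PI 3) and that of stimulation in ethanol 1.14 (adjusted p = 0.0117). Nfat5-202, from a start near 107338508, was estimated at 46.9, 1.39 and 1.72 counts in CsA_PI, 0, 9.96 and 3.97 in ethanol_PI, 0, 0.06 and 168 in CsA_US, and 197, 7.23 and 128 in ethanol_US. It has no 31-base stretch of its own, and its counts overlapped between all 4 groups. Nfat5-212, a retained-intron transcript with 25.7% of its stretches its own, was not called. For CsA in stimulated cells it had -0.85 ± 0.36 (log2), or -0.79 without the library labelled CsA_PI 2. For stimulation in ethanol it had 0.61 ± 0.36.

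Nfat5-208 had 36.9, 8.58 and 33.4 estimated counts in CsA_PI, all but 0 in ethanol_PI, 0 in CsA_US, and 2.10, 0 and 0 in ethanol_US. With all libraries it did not enter the tests. Without the library labelled CsA_PI 2 it entered them through the group where it is high. Its start at 107355820 was then called higher in CsA_PI than in ethanol_PI (adjusted p = 0.0333, beside 12.2% of start groups called) and than in CsA_US (adjusted p = 0.0193, beside 17.4%). Its 3′ end at 107373530 was called in level (adjusted p = 0.0269 and 0.0143, beside 11.6% and 18% of end groups) and in usage (adjusted p = 0.04 and 0.00884, beside 0.0495% and 0.842%) in the same comparisons. The transcript itself was not called (adjusted p = 0.0896 and 0.055). These calls compare groups at or near 0 counts with 2 libraries, and 26 of the transcript's 5451 stretches of 31 bases were its own.

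Counted over the 14 tested transcripts, 3 were called for CsA in stimulated cells (Nfatc1-201, Nfatc1-202 and Nfatc3-201), beside 6.8% of all transcripts, and 7 had an unadjusted p under 0.05, where 20.4% of transcripts did. For stimulation in ethanol 4 were called, these 3 and Nfat5-214, beside 17.3% of all transcripts. The difference of the CsA effects was called for Nfatc1-201 at -2.19, Nfatc1-202 at -2.50 and Nfatc3-201 at 1.68, where 1.85% of transcripts were. The same 3 were called without the library labelled CsA_PI 2, at -2.14, -2.55 and 1.68. The Nfatc3-201 call was kept in 4 of the 12 fits that left out a single library and lost in 8, those without CsA_PI 1 or 3, ethanol_PI 1 or 3, CsA_US 3 or any ethanol_US library, with adjusted p up to 0.0819. For CsA in unstimulated cells and for stimulation under CsA, edgeR called 0 of the 14 and 0 of all transcripts. In each of these contrasts 1 of the 14 had an unadjusted p under 0.05, where 3.36% of transcripts did for CsA in unstimulated cells and 15.8% for stimulation under CsA. Of the 6 start groups that entered the usage test, edgeR called 0 in any of the 5 contrasts. Of all 12060 start groups in that test, 0.0995% were called for CsA in stimulated cells, 0.647% for stimulation in ethanol, 0.058% for CsA in unstimulated cells, 0.323% for stimulation under CsA and 0.0166% for the difference of the CsA effects. The unadjusted p was under 0.05 for the Nfat5 start at 107338508 with stimulation (0.0346) and the Nfatc2 start at 168552276 between CsA_PI and CsA_US (0.0126).

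The genes around the family were described by 7 lists, with values from the gene-level fits above. Calcineurin and calmodulin, the phosphatase and its calcium sensor, showed no call with CsA in stimulated cells or with stimulation in ethanol. By edgeR 0 of 7 were called in each, beside 23% and 39.8% of all genes. An unadjusted p under 0.05 was found for 0 of 7 in either, and DESeq2 called 0. Their median log2 fold changes were -0.26 and -0.18, against 0.06 and -0.02 over all genes. Ppp3ca, encoding a catalytic subunit, had 24.0, 21.6 and 23.0 CPM in CsA_PI, against 35.7, 43.8 and 55.1 CPM in CsA_US. Its log2 difference of -0.97 passed narrowly (adjusted p = 0.0431, edgeR), and was -0.95 without the library labelled CsA_PI 2. In that comparison 1 of the 7 was called, beside 5.28% of all genes. The call was lost without CsA_US 2 or without CsA_US 3, where 0 of all genes were called. With the library labelled CsA_PI 2 left out instead, 2 of 7 were called lower, beside 28.7% of all genes called.

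Among 6 tested calcineurin regulators and scaffolds, 1 was higher and 1 lower with CsA in stimulated cells, where 23% of all genes were called. Rcan1, which encodes a calcineurin inhibitor, is itself a calcineurin-NFAT target and is counted among the NFAT targets below too, had 1.11, 6.82 and 2.16 CPM in CsA_PI, against 14.1, 22.5 and 16.4 CPM in ethanol_PI (log2 -2.38, adjusted p = 0.00481). Rcan3, of the same family, had 45.4, 79.5 and 52.3 CPM in CsA_PI, against 9.89, 11.9 and 12.8 CPM in ethanol_PI (log2 2.36, adjusted p = 1.70e-05). Stimulation in ethanol moved both the other way, by 1.63 for Rcan1 and -2.84 for Rcan3. Within each gene, picked by its call in this comparison, the CsA_PI libraries did not overlap with ethanol_PI. The CsA effect without the library labelled CsA_PI 2 was -3.41 for Rcan1 and 2.12 for Rcan3.

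Of 8 calcium entry genes 3 were called for CsA in stimulated cells, again beside 23% of all genes. Orai1, the pore of the store-operated channel, had 143, 58.2 and 135 CPM in CsA_PI, against 414, 259 and 386 CPM in ethanol_PI (log2 -1.66, adjusted p = 0.00209). Itpr3 and Stim1 were called higher with CsA, at 0.70 and 0.52. Without the library labelled CsA_PI 2 those 2 calls were lost and Orai2 was called lower, at -1.29, beside Orai1 at -1.31. Stimulation in ethanol raised Orai1 by 2.57 and the calcium sensor Stim2 by 2.12, and lowered the calcium release channel Itpr3 by 1.07 (log2).

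Of 10 kinases and transport factors that govern NFAT phosphorylation or passage through the nuclear pore, 2 were lower with CsA in stimulated cells, Kpnb1, encoding importin beta, at -1.47 and the casein kinase gene Csnk1d at -0.71, or -1.37 and -0.59 without the library labelled CsA_PI 2, where the nuclear exporter gene Xpo1 was called lower too, at -0.74; 12.7% of all genes were called lower in that comparison. Stimulation in ethanol, where 39.8% of genes were called, raised Kpnb1 by 1.29, Csnk1d by 0.76 and Csnk1a1 by 0.56, and lowered Dyrk1b by 3.12 and Gsk3b, which encodes an NFAT export kinase, by 1.71 (log2).

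Of the 6 tested relatives and partners, the NF-κB genes Rel, Nfkb1, Rela, Nfkb2 and Relb were all higher in ethanol_PI than in ethanol_US, at log2 3.39, 2.94, 2.00, 1.94 and 1.34, beside 20.1% of all genes called higher. Rel and Rela were lower with CsA in stimulated cells, at -1.61 and -1.46, or -1.18 and -1.28 without the library labelled CsA_PI 2. Nfkb1 had 1687 and 1052 CPM in CsA_PI 1 and 3 and 113 CPM in the library labelled CsA_PI 2, against 1339, 1003 and 1627 CPM in ethanol_PI. Between CsA_PI and CsA_US, 3 of these 6 genes were called higher with all libraries, beside 5.28% of all genes called. Without CsA_US 2 or without CsA_US 3 this comparison called 0 of all genes. With the library labelled CsA_PI 2 left out instead, 5 of the 6 were called higher and 1, Nfatc2ip, lower at -0.69, beside 28.7% called. Of the 4 NFAT genes, 0 were called with all libraries or without the library labelled CsA_PI 2.

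Known NFAT target genes of T cells, chosen with results of these libraries known and so no independent evidence of direction, were mostly called. Of 19, 15 fell with CsA in stimulated cells, beside 12.7% of all genes, and 18 rose with stimulation in ethanol. Their median log2 fold changes were -3.79 and 5.29. Il2, the T cell growth factor, had 25.4, 2.59 and 23.3 CPM in CsA_PI, against 2078, 1817 and 1759 CPM in ethanol_PI. Il4, a cytokine of helper T cells, had 8.80, 7.23 and 3.92 CPM in CsA_PI, against 1018, 386 and 449.9 CPM in ethanol_PI. In both genes the highest CsA_PI library was far below the lowest ethanol_PI library. The largest fitted changes with CsA after Il3 were Il21 at -7.08, Il2 at -6.79, Il4 at -6.53, Ifng at -5.00 and Cd40lg at -4.62, all on the log2 scale. Leaving out the library labelled CsA_PI 2 gave -7.85, -6.23, -6.54, -4.49 and -4.23 in the same order. Il3 had 0 counts in CsA_PI, CsA_US and ethanol_US and 10.96, 5.63 and 7.64 CPM in ethanol_PI, at least 101-fold lower in CsA_PI and at least 140-fold higher in ethanol_PI than in ethanol_US, with the floor at 3 counts over a group. It entered the tests through ethanol_PI alone, so its part in the counts above is fixed by that entry. Not called were Nr4a1, Il2ra, Pdcd1 and Tnfrsf9, and without the library labelled CsA_PI 2, 17 of 19 fell, Nr4a1 (-0.96) and Pdcd1 (-1.02) now among them, beside 12.1% of all genes. Under CsA stimulation still raised 10 of the 19, with Il2 at 5.07 and Egr2 at 4.29, beside 5.28% of all genes called. These calls were fragile, since without CsA_US 2 or without CsA_US 3 this comparison called 0 of all genes. With the library labelled CsA_PI 2 left out instead, 12 of the 19 were called higher and 2 lower, Rcan1 at -1.68 and Pdcd1 at -0.75, beside 28.7% called. The baseline of these folds was low: Il2 had 0.33, 0.74 and 0.45 CPM in CsA_US, near the floor of 3 counts. Egr2 had 6.69, 7.89 and 4.65 CPM in CsA_US, against 79.7, 43.8 and 32.1 CPM in ethanol_US. Between CsA_US and ethanol_US the median of the 19 was -0.38. There edgeR called 0 of 19, and DESeq2 called 3 of 19 and 20 of 14398 genes.

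Of 7 tested target genes of the NFAT5 tonicity response, 4 fell with CsA in stimulated cells (3 without the library labelled CsA_PI 2), beside 12.7% of all genes called lower, and 3 rose with stimulation in ethanol, beside 20.1% called higher. Hspa4l, a heat shock protein gene, had 14.4, 38.8 and 14.9 CPM in CsA_PI, against 350, 305 and 394 CPM in ethanol_PI (log2 -3.94). Slc5a3, the myo-inositol transporter, had 47.1, 32.7 and 66.9 CPM in CsA_PI, against 96.4, 111 and 122 CPM in ethanol_PI (log2 -1.17). Akr1b3, aldose reductase, was lower with CsA by 0.65 and Hspa1a, an inducible heat shock protein gene, by 0.82 on the log2 scale. CsA_PI and ethanol_PI did not overlap in these 4 genes, which were picked by their call in this comparison. The tested genes not called, Slc6a6, Slc38a2 and Hspa1b, did overlap, and Hspa1b averaged 2.63 CPM in CsA_PI and 1.58 CPM in ethanol_PI. Without the library labelled CsA_PI 2 the Hspa1a call was lost, at -0.77 (adjusted p = 0.0679), and Hspa4l was at -4.54, Slc5a3 at -0.91 and Akr1b3 at -0.62.

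**Figure D5:**
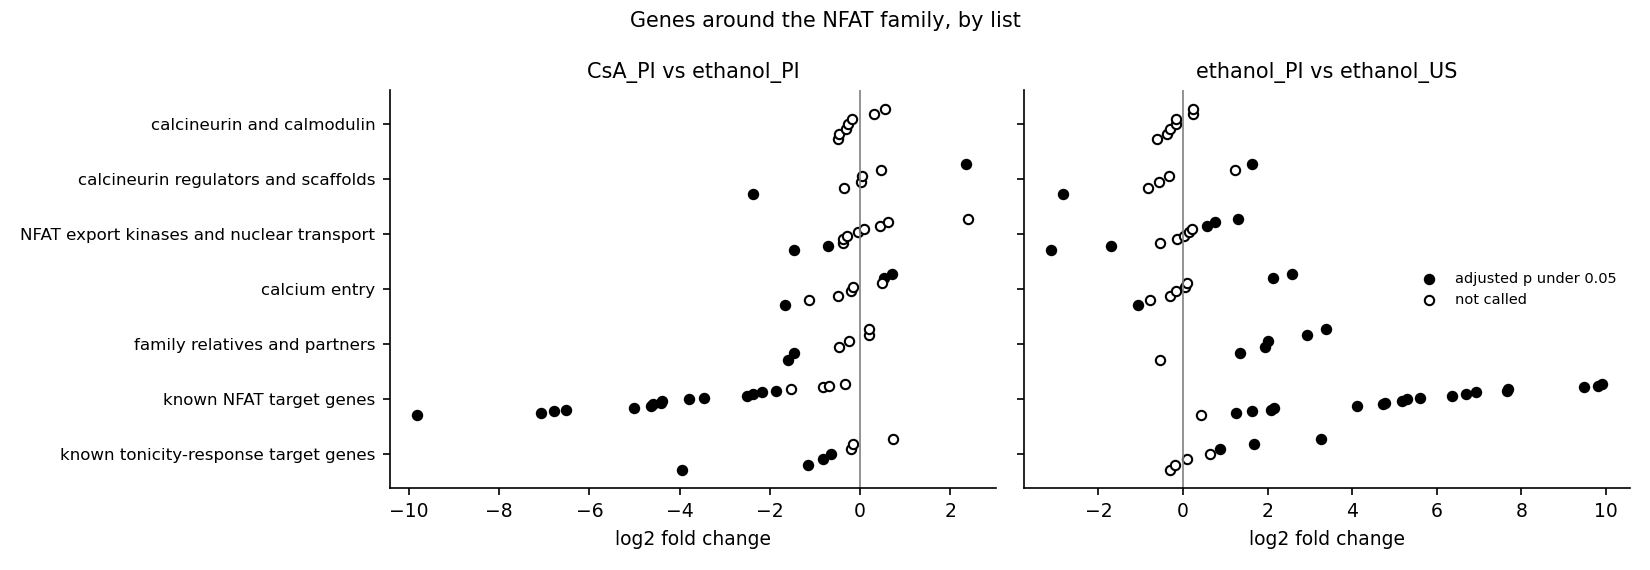
Log2 fold change (horizontal axis) of each tested gene of the 7 lists for CsA_PI against ethanol_PI (left) and ethanol_PI against ethanol_US (right). Filled points have an adjusted p under 0.05; calcineurin and calmodulin has 0 filled of 7, known NFAT targets 15 and 18 of 19, and the outermost fitted value, Il3, rests on groups at 0 counts.

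Genes with a like pattern were sought by Pearson correlation of log2 CPM over the 12 libraries, among 8013 genes with a mean of 10 CPM or more. The points share libraries and fall into ethanol_PI and the other groups, so the values describe a shared step and carry no test. Nfatc1 was most like Arhgap39 (0.991), Ccdc115 (0.990) and Ssbp4 (0.990). Nfatc2 was most like Dennd2d (0.957), Zkscan3 (0.955) and Krcc1 (0.955), and Nfatc3 most like Trex1 (0.961), Zbtb24 (0.961) and Mdp1 (0.958). For Nfat5 the most like were Atr (0.950) and Mafg (0.926). Within the family, Nfatc2 and Nfatc3 correlated at 0.924, Nfatc1 and Nfat5 at 0.854, Nfatc1 and Nfatc3 at -0.941 and Nfatc1 and Nfatc2 at -0.916. Over the 11 libraries without the one labelled CsA_PI 2 they were 0.922, 0.852, -0.940 and -0.914.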

How the data were processed

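RNA of 12 libraries (Clontech SMART-seq, per the labels) was measured in 4 groups of 3. The submitters' processing notes name cutadapt, a read trimmer, kallisto, which estimates transcript counts, and the build mm10; versions and annotation are not given in the sources used here, nor is the use of strand, so antisense reads cannot be told apart. The deposited tables hold, per the file headers, the authors' estimated counts, TPM, length and effective length of each transcript; estimated counts are not scaled for depth, and TPM is scaled for length and depth within a library by the authors. Reads carry no molecular identifiers, so limits from counts cover counting error only.

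Of 109617 transcripts, 108214 matched the mm10 annotation by identifier and 92.5% of these had the same length; unmatched ones held 0.494% to 0.629% of a library. Counts were summed by gene, by start site and by 3′ end (ends within 500 bases linked; the grouping by 3′ end was chosen after seeing the data), rounded, and tested in R 4.3.3 with edgeR 4.0.16: TMM, filterByExpr by group (minimum count 10, minimum total 15), 1 robust quasi-likelihood fit of all 12 libraries, Benjamini-Hochberg over all features. Usage was tested with diffSpliceDGE. A floor of 3 counts was 0.162 to 0.285 CPM. Scripts were tested on simulated data. Alternatives were RLE scaling, library totals, no filter, a replicate block, DESeq2 1.42.0, counts rebuilt from TPM, only the groups compared, 50-base linkage and each library left out.

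The members and lists were chosen with earlier results of these data known. Named were the 4 genes, their tested transcripts and groups, up to 6 called genes of each list by size of change, and the 3 genes most like each member, 1 of which is not reported here; Ppp3ca, Nfatc2ip, Nfat5-208 and list genes given as not called were named after their values were seen. Same-numbered libraries deviated together in the comparisons CsA_PI with ethanol_PI (correlations 0.165, 0.208, 0.107), ethanol_PI with ethanol_US (0.143, 0.319, 0.197) and CsA_US with ethanol_US (0.196, 0.325, 0.299), but not in every pair of CsA_PI with CsA_US (0.0333, 0.11, 0.123); the numbers come from the titles, which do not say what they share. Without the library labelled CsA_PI 2 the CsA_PI pairs 1 and 3 had 0.121 and 0.0438 with ethanol_PI.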

Additional observations from a re-analysis of the deposited data

Results flagged for a closer look

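The CsA effect in stimulated cells minus that in unstimulated cells, tested as an interaction with edgeR, differed from 0 at an adjusted p under 0.05 for 3 genes and for several of their transcripts and groups, all on the log2 scale. By gene it was -2.27 for Nfatc1, 1.60 for Nfatc3 and 1.297 for Nfatc2. By transcript it was -2.19 for Nfatc1-201, -2.50 for Nfatc1-202 and 1.68 for Nfatc3-201. By start site it was -2.42 for the downstream and -2.03 for the upstream start of Nfatc1, and 1.65 for Nfatc3. By 3′ end it was -2.24 for the proximal and -2.21 for the distal end of Nfatc1, and 1.62 for Nfatc3. These levels share the same reads and are not separate evidence.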

How the results depend on the processing

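At the gene level, 344 of 376 repeats of the 20 results (4 genes, 5 contrasts) kept their direction and side of the threshold, 13 lost the call and 19 changed the sign of a value that was not called. Library totals alone lost the Nfat5 calls, at -0.63 for CsA in stimulated cells and 0.39 for stimulation in ethanol, and turned stimulation under CsA to -0.17 for Nfatc1, -0.17 for Nfat5, -0.16 for Nfatc2 and -0.23 for Nfatc3, none called. Without the filter that contrast was -0.045 for Nfatc3 and -0.00147 for Nfatc1, and from rebuilt TPM -0.00779 for Nfatc3, where the Nfatc2 interaction was 1.21 and no longer called (adjusted p = 0.0546). The cause was not tested. The replicate block changed no call of the 4 genes: Nfat5 with CsA in stimulated cells was -0.92 (adjusted p = 0.0273) with the replicate pairing and -0.94 without.

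Counts of all genes moved most for stimulation under CsA, where 760 were called: 441 with the replicate block, 5 with library totals, 0 with only its groups, 153 from rebuilt TPM and 2022 by DESeq2. DESeq2 called 20 for CsA in unstimulated cells and 2120 for the interaction. In the same contrast transcripts numbered 0, against 1 with library totals and 9 unfiltered; start groups numbered 4, against 2 with library totals, 105 unfiltered, 0 with the block and 2 with 50-base linkage. With the block, usage calls were 5 for CsA in stimulated cells, 0 in unstimulated cells, 20 for stimulation under CsA and 1 for the interaction.

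Leaving out each library in turn gave, for Nfat5, -1.13 to -0.80 for CsA in stimulated cells, -0.12 to 0.27 for stimulation under CsA and -0.23 to 0.17 for CsA in unstimulated cells. Nfatc1 ranged from -0.0053 to 0.15 and from -0.14 to 0.036 in the last 2 contrasts, Nfatc3 from -0.17 to 0.21 and from -0.073 to 0.33, and Nfatc2 from -0.0055 to 0.24 under CsA and from 1.07 to 1.501 in the interaction. Gene calls ranged from 0 to 4320 for stimulation under CsA (4320 without the library labelled CsA_PI 2), 0 to 7 for CsA in unstimulated cells and 787 to 1865 for the interaction. Start-group calls ranged from 1867 to 2865 for CsA in stimulated cells, 0 to 5 in unstimulated cells, 0 to 4061 for stimulation under CsA and 516 to 1365 for the interaction. For usage these were 4 to 11, 0 to 68, 0 to 161 and 0 to 34, with 20 to 100 for stimulation in ethanol. For transcripts they were 1397 to 2232, 0 to 15, 0 to 3442 and 229 to 904, with 3715 to 7367 for stimulation in ethanol. With 3 libraries a group, small changes of the 4 genes could go undetected.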
